A study of Mus musculus with 8 samples.

Results

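The transcripts described here come from 39 genes of autophagy and the lysosome, chosen by name from a count table of 55421 genes. The list holds the starvation-linked transcription factors Tfeb, Tfe3 and Mitf, the genes that build the autophagosome, cargo receptors, and proteins of the lysosomal membrane and lumen. All 39 symbols were found in the table, and all 39 had enough counts to be among the 20588 genes tested. The members were picked by name, with no threshold on a measured value, but with earlier results of these data known.

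RNA was sequenced from SSC cultures, which are primary cultures of mouse spermatogonia that contain the stem cells of the male germline. They were derived from testes of pups in the first week of life on a C57BL/6 by DBA/2 F1 background. The cultures grew on irradiated mouse embryonic fibroblast feeder cells with N2 supplement, bFGF and GDNF, so the fibroblasts are part of what was sequenced. The 4 groups were Stra8KO with vehicle (Veh), Stra8KO with NRRA, Spo11KO with Veh and Spo11KO with NRRA, with 2 libraries in each. NRRA joins nutrient-restricted medium with retinoic acid. The restricted medium is mostly a balanced salt solution, with culture medium as the smaller part. GDNF, bFGF and the other supplements are therefore diluted along with the nutrients. Effects of fewer nutrients, of less growth factor and supplement, and of retinoic acid cannot be told apart in these comparisons. Every group lacks a gene of the meiotic program, either Stra8, a factor for meiotic entry, or Spo11, which cuts DNA to start recombination. No wild type enters the comparisons here. The study calls its replicates independent and biological, drawn from different mice, tissues or cells, but which of these holds for the libraries of a group is not given in the sources used here, so the p-values measure the spread between these libraries, which may be technical.

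Autophagy wraps cytoplasm in a double membrane, the phagophore, which closes into an autophagosome and fuses with the lysosome, where acid hydrolases digest the cargo. Under plenty, the kinase mTORC1 sits on the lysosome, inhibits the ULK1 complex and keeps TFEB and TFE3 phosphorylated in the cytoplasm. In starvation these factors enter the nucleus and bind E-boxes near genes of autophagy and the lysosome, and FoxO factors act on an overlapping set of genes. Much of this control works on proteins and on their location, which transcript counts do not measure.

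The libraries held 20960794 to 27038868 counts, and the 2 libraries of a group had Spearman correlations of 0.995 across genes. Levels are given as CPM, which are counts per 1000000 of a library's total after TMM scaling corrected that total. The CPM of a library therefore need not add up to 1000000. Stra8 stood at 0.0894 and 0 CPM in Stra8KO Veh and at 8.16 and 7.85 CPM in Stra8KO NRRA, against 1.18 and 0.522 CPM in Spo11KO Veh and 486 and 552 CPM in Spo11KO NRRA. The Spo11 transcript was not low in the libraries labelled Spo11KO, with 3.03 and 3.26 CPM in Veh and 5.71 and 4.33 CPM in NRRA, and it was lower in Stra8KO, with 1.43 and 1.56 CPM in Veh and 3.28 and 3.05 CPM in NRRA. Which part of Spo11 the allele removes is not given in the sources used here, so the Spo11 count does not check that label. Markers of germ cells such as Ddx4 and Dazl were detected in all 8 libraries, as were feeder genes such as Col1a1.

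Per kilobase of exon, the members spanned a wide range of levels. Averaged over the 4 groups, Lamp1, a heavily glycosylated protein of the lysosomal membrane, stood highest at 283 CPM per kilobase, followed by the lysosomal protease genes Ctsl at 276 and Ctsd at 208 CPM per kilobase. The lowest were Mitf at 1.64, Ctss at 1.46 and Atg9b at 1.33 CPM per kilobase. On the same strand, Ctsd shares 34.37% of its exon bases with Gm49369 and Ctsl 6.09% with Gm49230, each with 0 counts. If reads that fit both genes of a pair went uncounted, the levels of Ctsd and Ctsl are too low, which was not tested. Together the members held 1.04% of all counts in each Stra8KO Veh library and 0.876% and 0.874% with NRRA, and 0.679% and 0.683% in Spo11KO Veh and 0.652% and 0.646% with NRRA.

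The first question was whether NRRA moved the module. Members moved in both directions and mostly by small amounts, and the shares called lay near or above those of all genes. In Stra8KO, 11 of the 39 members rose (all genes tested, 21.6%), 13 fell (all genes tested, 20.2%) and 15 did not pass the test. In Spo11KO, 10 rose (24.5% of all genes) and 12 fell (25.5% of all genes), with 17 not passing. Rose and fell here mean that the adjusted p was below 0.05 in the quasi-likelihood test of edgeR, with the Benjamini-Hochberg method applied to all tested genes. The median log2 fold change of the members was -0.01 in Stra8KO and -0.02 in Spo11KO, beside 0.01 over all tested genes in each genotype. The libraries of the 2 media did not overlap for 28 members in Stra8KO (69.4% of all genes tested) and for 31 in Spo11KO (71.9% of all genes tested). A log2 change below 0.58 in size, about 1.5-fold, held for 35 of the 39 members in Stra8KO and 36 in Spo11KO, or 89.7% and 92.3%, beside 74.4% and 71.9% of all genes.

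**Figure D1:**
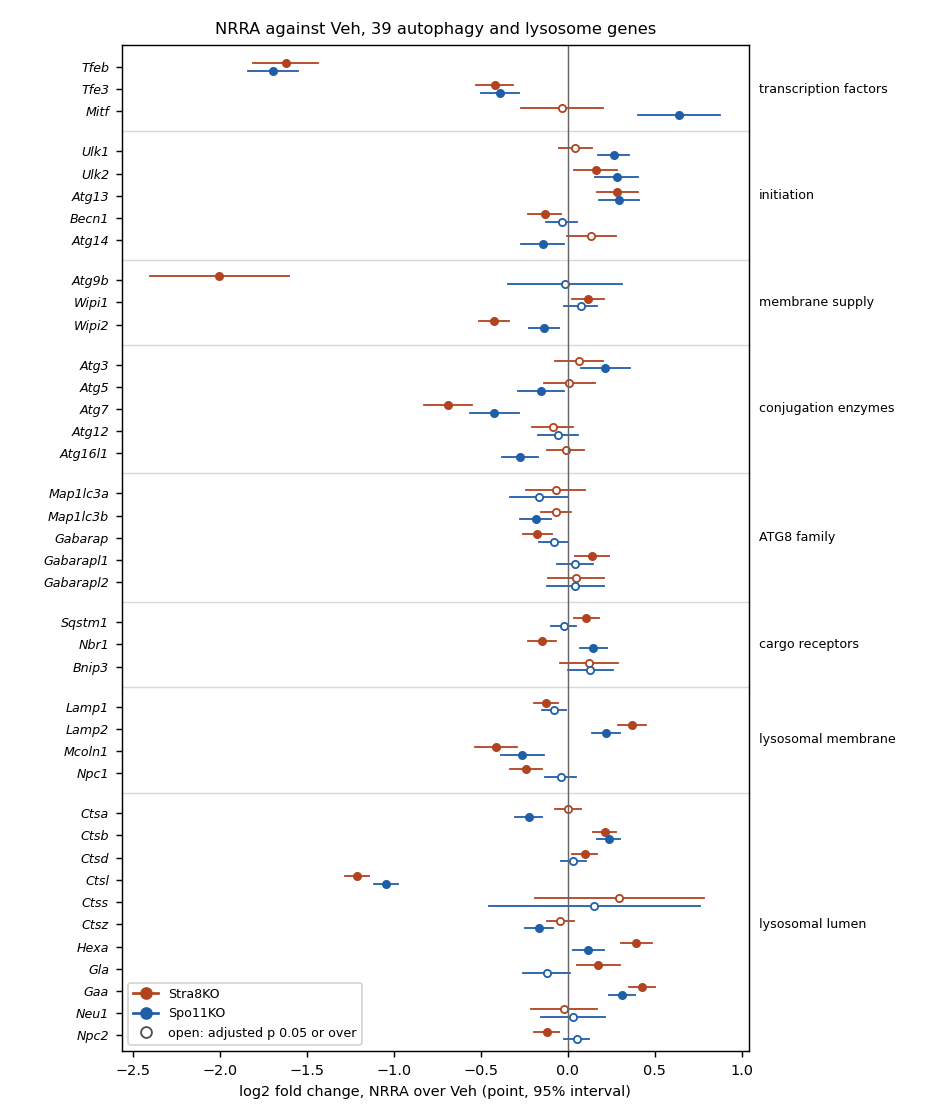
Log2 fold change of NRRA over Veh (x axis) for the 39 members (y axis, grouped by role) in Stra8KO (red) and Spo11KO (blue), with 95% intervals from the fit and open points where the adjusted p was 0.05 or over. Tfeb and Ctsl lie below -1 in both genotypes, Atg9b lies at -2.00 in Stra8KO and -0.02 in Spo11KO, and most other members lie within 0.58 of 0.

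The transcription factors held the largest fall that the genotypes had in common. Tfeb (chromosome 17, 47737030 to 47792419, plus strand, GRCm38, protein coding) encodes the factor named as the main switch of lysosomal gene expression. It stood at 30.1 and 27.4 CPM in Stra8KO Veh, 9.12 and 9.55 CPM in Stra8KO NRRA, 62.4 and 59.7 CPM in Spo11KO Veh, and 19.9 and 17.8 CPM in Spo11KO NRRA. Each NRRA library lay below each Veh library of its genotype. Tfeb fell by 67.5% in Stra8KO (log2 fold change -1.62 ± 0.093 SE, n = 2 against 2, edgeR adjusted p = 1.48e-20) and by 69.1% in Spo11KO (-1.69 ± 0.072, adjusted p = 7.94e-26). The difference between the genotypes in this fall was 0.07 on the log2 scale, with a 95% interval from -0.17 to 0.32.

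Tfe3, the paralog that shares much of TFEB's control by mTORC1, was at 94.99 and 90.9 CPM in Stra8KO Veh and 66.9 and 72.0 CPM in Stra8KO NRRA, and at 68.0 and 65.8 CPM in Spo11KO Veh and 52.1 and 50.2 CPM in Spo11KO NRRA. It fell in both genotypes, by 0.42 and 0.39 on the log2 scale, with no overlap between media. Mitf, the third member of the family and best known from melanocytes, had few counts. Its levels were 10.7 and 11.3 CPM in Stra8KO Veh, 10.8 and 10.7 CPM in Stra8KO NRRA, 7.71 and 7.05 CPM in Spo11KO Veh, and 10.8 and 12.1 CPM in Spo11KO NRRA. The Spo11KO Veh libraries were the low pair. Mitf rose in Spo11KO (log2 fold change 0.64 ± 0.12, edgeR adjusted p = 8.60e-06) and gave -0.03 ± 0.12 in Stra8KO, and the difference between the genotypes was itself called at -0.67 ± 0.17 (adjusted p = 0.00155).

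TFEB and TFE3 bind the palindrome TCACGTGA, so promoters of the members were searched for these letters on either strand, in a window from 250 bases before to 50 bases after the start site (RefSeq, GRCm38.p6). A promoter was found for 33 of the 39 members. The palindrome was in the promoter of 5 of the 33, Atg3, Ctsa, Ctsd, Gla and Mcoln1, which is 15.2%, and in 1.12% of all 27025 genes with a promoter. The shorter core CACGTG, which the palindrome contains, was in 12 of the 33 (36.4%) against 8.09% of all genes. The FoxO motif GTAAACA was in none of the 33 and in 4.05% of all genes. The members were chosen as autophagy and lysosome genes, near which TFEB and TFE3 bind, so a higher palindrome share could follow from that choice. The 27025 genes were not limited to those tested, and these shares are a description only. The 5 members with the palindrome are shown because their transcripts can be set beside the fall of Tfeb and Tfe3. Each stretch is printed 5′ to 3′ on the strand of its gene, with the palindrome in capitals.
Ctsa: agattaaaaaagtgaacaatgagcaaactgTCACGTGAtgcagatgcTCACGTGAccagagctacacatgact
Ctsd: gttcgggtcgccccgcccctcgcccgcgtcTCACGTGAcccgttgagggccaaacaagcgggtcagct
Mcoln1: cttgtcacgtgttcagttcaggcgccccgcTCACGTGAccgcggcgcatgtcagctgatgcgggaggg
Atg3: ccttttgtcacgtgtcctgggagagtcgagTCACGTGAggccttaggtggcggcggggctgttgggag
Gla: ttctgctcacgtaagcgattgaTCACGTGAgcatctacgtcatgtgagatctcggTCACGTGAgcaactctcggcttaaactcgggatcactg

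These stretches lie at chr2:164833730-164833802 (plus strand) for Ctsa, chr7:142387889-142387956 (minus strand) for Ctsd, chr8:3500443-3500510 (plus strand) for Mcoln1, chr16:45158727-45158794 (plus strand) for Atg3 and chrX:134601163-134601255 (minus strand) for Gla. The palindrome began 46 bases before the start site in Mcoln1, 72 in Atg3 and 99 in Ctsd, 228 and 195 bases before it in Gla, and 13 bases before and 4 bases after it in Ctsa. The transcripts of these members did not move one way with NRRA. Mcoln1, the lysosomal calcium channel that feeds back on TFEB, fell in both genotypes, by 0.41 and 0.26 on the log2 scale. Atg3, the enzyme that attaches lipid to the ATG8 proteins, gave 0.06 in Stra8KO and rose by 0.22 in Spo11KO. Ctsa, which protects sialidase and beta-galactosidase in the lysosome, gave 0.00 in Stra8KO and fell by 0.23 in Spo11KO. The aspartic protease gene Ctsd rose by 0.10 in Stra8KO and gave 0.03 in Spo11KO, and the alpha-galactosidase gene Gla rose by 0.17 in Stra8KO and gave -0.12 in Spo11KO. The Atg3 call in Spo11KO was lost without Spo11KO NRRA replicate 2, the Gla call in Stra8KO with DESeq2 and without Stra8KO Veh replicate 1 or Stra8KO NRRA replicate 1, and the Ctsd call in Stra8KO with DESeq2 or its size factors and without a number of single libraries.

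Of the initiation genes, the scaffold Atg13 and the kinase Ulk2 rose in both genotypes. Atg13, a subunit of the ULK1 complex, was at 55.1 and 53.9 CPM in Stra8KO Veh, 65.6 and 67.2 CPM in Stra8KO NRRA, 55.2 and 49.8 CPM in Spo11KO Veh, and 65.0 and 63.7 CPM in Spo11KO NRRA. The NRRA libraries were the higher ones in each genotype, by 0.28 ± 0.058 and 0.29 ± 0.056 on the log2 scale. Ulk2 rose by 0.16 in Stra8KO, a call lost with DESeq2, with its size factors and without several single libraries, and by 0.28 in Spo11KO. Ulk1, the kinase that starts the process, gave 0.04 in Stra8KO and rose by 0.26 ± 0.045 in Spo11KO, and the difference between genotypes was called at -0.22 (edgeR adjusted p = 0.00882), though not without Stra8KO Veh replicate 1 or Stra8KO NRRA replicate 1. Becn1 and Atg14 belong to the lipid kinase complex that marks the phagophore. Becn1 gave -0.13 in Stra8KO, called but lost without either Stra8KO Veh library or without Stra8KO NRRA replicate 2, and -0.04 in Spo11KO. The exons of Becn1 share 43.93% of their bases with Cntd1 on the other strand, which had 7290 counts in all against 19902 for Becn1. Although the library preparation selected a strand, whether the counting used it is not given in the sources used here. Atg14 gave 0.13 in Stra8KO without passing and was called at -0.15 in Spo11KO. That call was lost under both other scalings, both other filters on low counts, with DESeq2 and without several single libraries.

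Atg9b showed the largest NRRA effect among the members, and it did so in Stra8KO. ATG9 proteins are lipid scramblases that serve the growing phagophore, and Atg9b is the paralog with the narrower tissue range. Atg9b (chromosome 5, 24384181 to 24392143, minus strand, GRCm38) was at 8.45 and 7.25 CPM in Stra8KO Veh, 2.41 and 1.52 CPM in Stra8KO NRRA, 5.90 and 5.35 CPM in Spo11KO Veh, and 4.82 and 6.24 CPM in Spo11KO NRRA. The Stra8KO NRRA pair was lowest of the 4 groups, while the Spo11KO media overlapped. Atg9b fell by 75.1% in Stra8KO (log2 fold change -2.00 ± 0.20, edgeR adjusted p = 3.19e-12) and gave -0.02 ± 0.16 in Spo11KO. The difference between genotypes was -1.99 ± 0.26 (adjusted p = 2.37e-08), and both calls held in every alternative run. Its total over the 8 libraries was only 987 counts, and 7.45% of its exon bases lie opposite exons of Nos3, which had 200 counts in all. The paralog Atg9a, which is not a member, stood higher than Atg9b in every library. Atg9a was at 30.2 and 31.1 CPM in Stra8KO Veh and 28.9 and 29.5 CPM in Stra8KO NRRA. In Spo11KO it was at 24.0 and 21.9 CPM in Veh and 26.2 and 25.2 CPM in NRRA.

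WIPI proteins read the phosphoinositide on the phagophore. Wipi2, which recruits the conjugation machinery, was at 170.4 and 169 CPM in Stra8KO Veh, 129 and 124 CPM in Stra8KO NRRA, 122 and 126 CPM in Spo11KO Veh, and 114 and 111 CPM in Spo11KO NRRA. It fell in both genotypes, by 0.42 ± 0.043 in Stra8KO and 0.14 ± 0.044 in Spo11KO on the log2 scale, and the difference of -0.29 between genotypes was called (edgeR adjusted p = 0.000275). The Spo11KO fall did not pass with total counts as the scale or with no filter on low counts. Wipi1 gave 0.11 in Stra8KO, called but lost with DESeq2, with its size factors and without several single libraries, and 0.07 in Spo11KO.

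Among the conjugation enzymes, Atg7, the activating enzyme that serves both conjugation reactions of autophagy, changed most. It was at 57.3 and 55.3 CPM in Stra8KO Veh, 36.2 and 33.6 CPM in Stra8KO NRRA, 36.6 and 36.7 CPM in Spo11KO Veh, and 25.3 and 29.2 CPM in Spo11KO NRRA. NRRA libraries were below Veh libraries in each genotype. Atg7 fell by 0.69 ± 0.068 on the log2 scale in Stra8KO (edgeR adjusted p = 2.68e-12) and by 0.42 ± 0.070 in Spo11KO (adjusted p = 1.18e-06). Atg16l1, which targets the conjugation complex to membrane, gave -0.01 in Stra8KO and fell by 0.27 ± 0.051 in Spo11KO, with a difference of 0.26 that was called but lost with total counts as the scale, with no filter and with DESeq2. Atg5, which is joined to ATG12, gave 0.01 in Stra8KO and was called at -0.16 in Spo11KO. That call was lost under both other scalings, both other filters on low counts, with DESeq2 and without several single libraries. Atg12, the ubiquitin-like protein itself, passed in neither genotype, with -0.09 and -0.06.

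The ATG8 family is the set of ubiquitin-like proteins that coat the autophagosome, and lipid-bound LC3 is the standard protein readout of autophagy. The 5 family transcripts stayed between -0.19 and 0.14 on the log2 scale under NRRA. In Stra8KO, Gabarap fell by 0.18 ± 0.041 and Gabarapl1 was called at 0.14 ± 0.048, while Map1lc3a, Map1lc3b and Gabarapl2 did not pass, with -0.07, -0.07 and 0.05. In Spo11KO, Map1lc3b was called at -0.19 ± 0.044, and Map1lc3a, Gabarap, Gabarapl1 and Gabarapl2 did not pass, with -0.17, -0.08, 0.04 and 0.04. The Gabarapl1 call was lost with DESeq2, with its size factors and without Stra8KO Veh replicate 1 or Stra8KO NRRA replicate 1, and the Map1lc3b call with total counts as the scale. Exons of Gabarapl1 share 28.32% of their bases with 1700101I11Rik on the other strand, which had 3714 counts in all against 16727 for Gabarapl1.

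Cargo receptors link marked cargo to the ATG8 proteins. Nbr1, a receptor for ubiquitinated cargo, was the member that passed in opposite directions. It was at 239 and 234 CPM in Stra8KO Veh, 215 and 212 CPM in Stra8KO NRRA, 212 and 218 CPM in Spo11KO Veh, and 232 and 244 CPM in Spo11KO NRRA. NRRA libraries were the lower pair in Stra8KO and the higher pair in Spo11KO. Nbr1 fell by 0.15 ± 0.040 in Stra8KO and rose by 0.15 ± 0.039 in Spo11KO on the log2 scale, and the difference of -0.29 ± 0.056 was called (edgeR adjusted p = 4.18e-05). The Spo11KO call was lost without Spo11KO NRRA replicate 2, with 0.09. Sqstm1, the p62 receptor, gave 0.10 in Stra8KO, called but lost with DESeq2, with its size factors and without several single libraries, and -0.02 in Spo11KO. Bnip3, a mitochondrial receptor known as a target of hypoxia and FoxO signalling, passed in neither genotype, with 0.12 and 0.13.

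On the lysosomal membrane, Lamp2, which serves fusion and chaperone-mediated autophagy, rose in both genotypes. Its levels were 322 and 309 CPM in Stra8KO Veh, 420.1 and 393 CPM in Stra8KO NRRA, 221 and 236 CPM in Spo11KO Veh, and 263 and 269 CPM in Spo11KO NRRA. The media did not overlap, and Lamp2 rose by 0.37 ± 0.040 in Stra8KO and 0.22 ± 0.040 in Spo11KO on the log2 scale. Mcoln1 was at 59.6 and 58.2 CPM in Stra8KO Veh, 43.9 and 44.6 CPM in Stra8KO NRRA, 47.0 and 46.7 CPM in Spo11KO Veh, and 37.6 and 40.5 CPM in Spo11KO NRRA, below Veh in each genotype. Lamp1 fell by 0.13 ± 0.034 in Stra8KO and gave -0.08 without passing in Spo11KO. Npc1, which moves cholesterol out of the lysosome, fell by 0.24 ± 0.045 in Stra8KO and gave -0.04 in Spo11KO, with a difference of -0.20 that was called but lost without Stra8KO Veh replicate 1, Stra8KO NRRA replicate 2, Spo11KO Veh replicate 1 or Spo11KO NRRA replicate 2.

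The lumen held the member with the most counts that changed. Ctsl (chromosome 13, 64359337 to 64370890, minus strand, GRCm38) encodes cathepsin L, a cysteine protease. It was at 3476 and 3425 CPM in Stra8KO Veh, 1509.8 and 1466 CPM in Stra8KO NRRA, 1440.1 and 1543 CPM in Spo11KO Veh, and 725 and 720.0 CPM in Spo11KO NRRA. NRRA libraries were far below Veh libraries in each genotype. Ctsl fell by 56.9% in Stra8KO (log2 fold change -1.21 ± 0.034, edgeR adjusted p = 4.62e-33) and by 51.6% in Spo11KO (-1.05 ± 0.034, adjusted p = 2.76e-30). The antisense gene Gm47123, which lies opposite 26.85% of the Ctsl exon bases, had 412 counts against 318340 for Ctsl.

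Cathepsin B moved the other way from cathepsin L. Ctsb, also a cysteine protease gene, was at 1227 CPM in each Stra8KO Veh library, 1412 and 1429 CPM in Stra8KO NRRA, 602 and 605 CPM in Spo11KO Veh, and 706 and 714 CPM in Spo11KO NRRA. It rose by 0.21 ± 0.033 and 0.23 ± 0.034 on the log2 scale, with no overlap between media. Gaa, the acid alpha-glucosidase that digests lysosomal glycogen, was at 384 and 374 CPM in Stra8KO Veh, 509 and 510.4 CPM in Stra8KO NRRA, 241 and 232 CPM in Spo11KO Veh, and 294 and 293 CPM in Spo11KO NRRA. Its rises of 0.43 ± 0.036 in Stra8KO and 0.31 ± 0.037 in Spo11KO were called in every alternative, and the one in Stra8KO was the largest rise of a member there. Hexa, the alpha subunit of beta-hexosaminidase, was at 125 CPM in each Stra8KO Veh library, 163 and 166 CPM in Stra8KO NRRA, 95.05 and 97.5 CPM in Spo11KO Veh, and 105 and 104 CPM in Spo11KO NRRA. Hexa rose by 0.39 ± 0.043 in Stra8KO and was called at 0.12 ± 0.045 in Spo11KO, where leaving out any 1 of the 4 Spo11KO libraries ended the call, and the difference of 0.28 between genotypes was called (edgeR adjusted p = 0.000528).

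**Figure D2:**
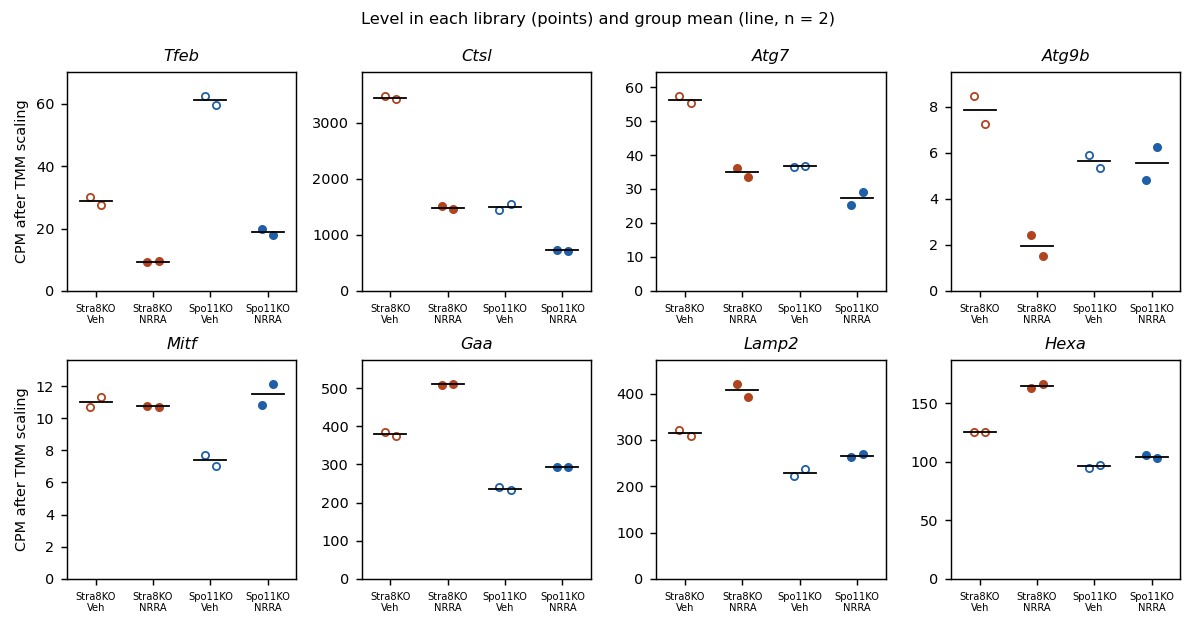
CPM after TMM scaling (y axis, from 0) of 8 members in each library, with Veh as open and NRRA as filled points, Stra8KO in red and Spo11KO in blue, and the mean of 2 libraries as a line. Tfeb, Ctsl and Atg7 are lower and Gaa, Lamp2 and Hexa higher with NRRA in each genotype, while Atg9b is low only in the Stra8KO NRRA libraries and Mitf only in the Spo11KO Veh libraries.

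Of the other lumen genes, Ctsz, an exopeptidase gene, gave -0.04 in Stra8KO and fell by 0.17 ± 0.040 in Spo11KO, where the call was lost with total counts as the scale. Npc2, the soluble cholesterol carrier, was called at -0.12 ± 0.035 in Stra8KO, though not without Stra8KO Veh replicate 2, and gave 0.05 in Spo11KO, with a difference of -0.17 that was likewise called but lost without that library. The sialidase gene Neu1 passed in neither genotype, with -0.02 and 0.03. Ctss, a cathepsin typical of antigen-presenting cells, stood at 1.01 to 3.28 CPM and passed in neither genotype, with 0.29 ± 0.24 and 0.15 ± 0.30.

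Markers of other cells moved with the medium as well. Of all genes tested, 21.6% rose and 20.2% fell in Stra8KO, and 24.5% rose and 25.5% fell in Spo11KO. Of 17 fibroblast markers, 12 rose and 4 fell with NRRA in Stra8KO and 12 rose and 5 fell in Spo11KO. Their summed share of counts went from 2.54% and 2.61% in Veh to 4.28% and 4.23% in NRRA for Stra8KO, and from 1.46% in each Veh library to 2.58% and 2.47% in NRRA for Spo11KO, and none of the 17 was at 0 in a library. The 8 germ cell markers had medians of 0.25 and 0.18 on the log2 scale, with 6 called higher in Stra8KO and 7 in Spo11KO and none called lower. Of 9 markers of undifferentiated spermatogonia, all fell in Spo11KO (median -2.77), while 4 rose and 4 fell in Stra8KO (median 0.01). In bulk RNA, fewer cells of a type and less RNA per cell cannot be told apart, and the part of these markers in the members' changes was not tested.

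Other genes of the pathway, from lists chosen by function, were read in the same fit. The counts of each list stand beside those of all genes tested. Of these, 21.6% rose and 20.2% fell in Stra8KO, and 24.5% rose and 25.5% fell in Spo11KO. The vacuolar ATPase, the proton pump that acidifies the lysosome, moved most evenly. Of its 16 genes tested, 15 fell and none rose in Stra8KO (median log2 fold change -0.34, range -0.99 to -0.20), and 10 fell and none rose in Spo11KO (median -0.19, range -0.87 to 0.10). With total counts as the scale, 7 fell and 1 rose in Spo11KO. Atp6v0a1, a membrane subunit, fell most, by 0.99 ± 0.053 in Stra8KO and 0.87 ± 0.055 in Spo11KO, followed in Stra8KO by Atp6v1g1 at -0.55 and Atp6v1a, the catalytic subunit, at -0.43. In Spo11KO the next were Atp6v1b2 at -0.43 and Atp6v1a at -0.34. Of the 11 V-ATPase genes with a promoter, 3 (Atp6v0d1, Atp6v0e and Atp6v1a) held TCACGTGA, or 27.3%, beside 1.12% of all genes. It was in 0 of 26 promoter-matched genes among the other lysosomal enzymes and in 2 of 10 (Clcn7 and Cln3) among the other lysosomal membrane genes. These lists were chosen by function too, so the limits given for the members' promoters hold here. With NRRA, Atp6v0d1, Atp6v1a and Clcn7 fell in both genotypes and Atp6v0e in Stra8KO, while Cln3 passed in neither. With the members included, 5 of the genes holding the palindrome fell, 2 rose and 3 did not pass in Stra8KO. In Spo11KO, 5 fell, 1 rose and 4 did not pass. Any tie of these changes to the palindrome was not tested.

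**Figure D3:**
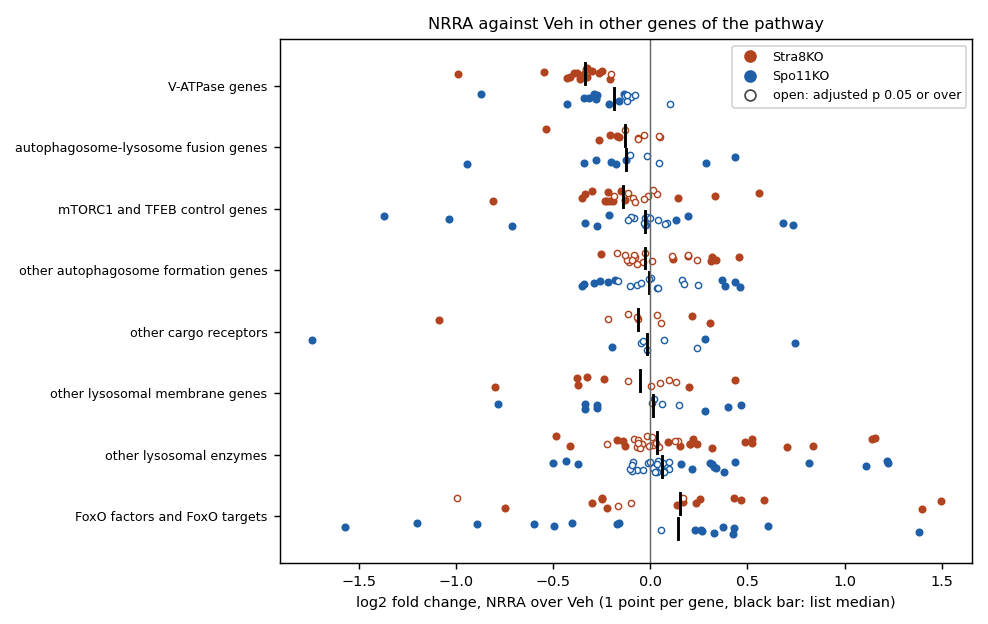
Log2 fold change of NRRA over Veh (x axis) for genes outside the 39, in 8 lists by function (y axis), with 1 point per gene, Stra8KO in red, Spo11KO in blue, open points where the adjusted p was 0.05 or over and black bars at list medians. V-ATPase genes lie to the left of 0 in Stra8KO, while the other lysosomal enzymes lie on both sides of 0.

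The other lysosomal enzymes spread both ways. Of 34, 14 rose and 5 fell in Stra8KO and 12 rose and 3 fell in Spo11KO, with medians of 0.04 and 0.06. Ctsc, the dipeptidyl peptidase that activates granule proteases, rose by 1.14 ± 0.078 and 1.22 ± 0.091 on the log2 scale. The cysteine cathepsin gene Ctsf rose by 1.23 in Spo11KO and by 0.70 in Stra8KO. On the lower side stood Gusb, the gene of beta-glucuronidase, at -0.48 and -0.43, with Ctsk at -0.17 in Stra8KO and Glb1 at -0.37 in Spo11KO.

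Of the 12 other lysosomal membrane genes, 2 rose and 5 fell in Stra8KO and 3 rose and 5 fell in Spo11KO. Laptm4a rose by 0.44 and 0.40 and its paralog Laptm4b fell by 0.80 and 0.78, and the cystine transporter gene Ctns rose by 0.20 and 0.47. Of 11 fusion genes, none rose and 5 fell in Stra8KO, and 2 rose and 6 fell in Spo11KO, where the SNARE gene Stx17 rose by 0.44 and Epg5 fell by 0.95. Rab7, the GTPase of late endosomes, fell by 0.26 and 0.28. Of 21 other autophagosome formation genes, 6 rose and 1 fell in Stra8KO and 4 rose and 6 fell in Spo11KO. Rb1cc1, the FIP200 scaffold of the ULK1 complex, rose by 0.32 and 0.44, and Pik3c3, the lipid kinase itself, rose by 0.34 and 0.46.

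Genes tied to the control of mTORC1 and TFEB moved both ways, with more falls than rises. Of 22 genes of mTORC1 and TFEB control, 3 rose and 11 fell in Stra8KO (21.6% and 20.2% of all genes tested). The median log2 fold change of the list was -0.14 in Stra8KO and -0.03 in Spo11KO. In Spo11KO, 4 rose and 6 fell, near the 24.5% and 25.5% of all genes tested. Mtor, the kinase, rose by 0.56 ± 0.039 and 0.69 ± 0.038 on the log2 scale, and Deptor, an mTOR inhibitor, fell by 0.81 ± 0.10 and 0.71 ± 0.084. Ddit4, an inhibitor of mTORC1 induced by stress, fell by 0.35 in Stra8KO and 1.37 in Spo11KO. The Rag GTPase gene Rragd, a known TFEB target, rose by 0.14 ± 0.050 in Stra8KO and fell by 1.04 ± 0.046 in Spo11KO. Fnip2, a folliculin partner, fell by 0.19 ± 0.045 in Stra8KO and rose by 0.74 ± 0.042 in Spo11KO. Sesn2, a leucine sensor, rose by 0.34 and 0.13.

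Of the 18 FoxO factors and target genes, 9 rose and 5 fell in Stra8KO (21.6% and 20.2% of all genes tested). In Spo11KO, 9 rose and 8 fell (24.5% and 25.5% of all genes tested). Foxo3 rose by 0.43 ± 0.039 and 0.60 ± 0.038 on the log2 scale, from 185 and 181 to 246 and 249 CPM in Stra8KO and from 186 and 188 to 286 and 283 CPM in Spo11KO. Foxo1, which marks spermatogonia, rose by 0.14 and 0.27. Foxo4 gave -0.10 without passing in Stra8KO and -0.17, called, in Spo11KO. The largest fall of the list was that of Foxo6, by 1.57 ± 0.065 in Spo11KO, while it gave -0.17 ± 0.074 without passing in Stra8KO. Among textbook FoxO targets, the pyruvate dehydrogenase kinase gene Pdk4 rose by 1.40 ± 0.096 and 1.38 ± 0.13, the atrophy ubiquitin ligase gene Fbxo32 rose by 1.496 ± 0.062 and 0.43 ± 0.059, Bcl6 fell by 0.75 and 0.89, and the cell cycle inhibitor gene Cdkn1b fell by 0.30 ± 0.13 and 0.60 ± 0.12. From the list of mTORC1 and TFEB control, Nr1d1, a transcriptional repressor of the circadian clock, fell by 0.30 ± 0.054 in Stra8KO. It gave -0.03 ± 0.052 in Spo11KO, and the difference of -0.27 ± 0.075 between genotypes was called (edgeR adjusted p = 0.00449).

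The second question was how the module differed between the knockouts in the same medium. In Veh, 28 of the 39 members were higher in Stra8KO than in Spo11KO (all genes tested, 31.6%), 6 were lower (30.7% of all genes) and 5 did not pass, and the median log2 fold change was 0.45, beside 0.00 over all genes. In NRRA, 25 were higher (35% of all genes), 7 were lower (28.9% of all genes) and 7 did not pass, with a median of 0.35 beside 0.07. The libraries of the genotypes did not overlap for 35 members in Veh (79.7% of all genes tested) and 36 in NRRA (80.8% of all genes tested). With total counts as the scale, the median of the members was 0.34 in Veh and 0.15 in NRRA, and 13 instead of 7 were lower in NRRA.

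**Figure D4:**
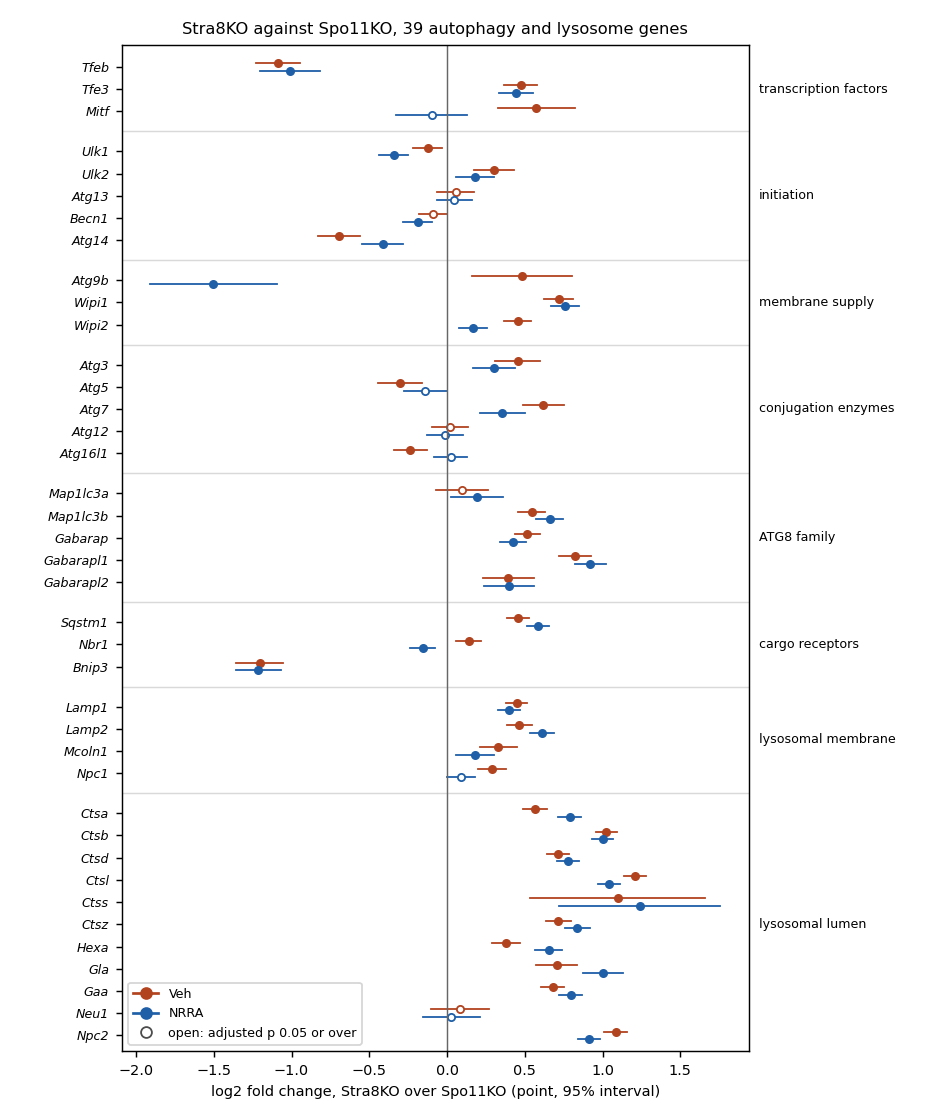
Log2 fold change of Stra8KO over Spo11KO (x axis) for the 39 members (y axis, grouped by role) in Veh (red) and NRRA (blue), with 95% intervals from the fit and open points where the adjusted p was 0.05 or over. Members of the lysosomal lumen lie to the right of 0, while Tfeb and Bnip3 lie near -1 in both media.

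The lysosomal lumen was the largest role group among the members higher in Stra8KO. Of its 11 members, 10 were higher in Stra8KO in each medium, with medians of 0.71 in Veh and 0.84 in NRRA, and Neu1 did not pass. Ctsl, with the values given above, was higher by 1.21 ± 0.034 and 1.04 ± 0.035 and Ctsb by 1.02 ± 0.034 and 1.00 ± 0.034 on the log2 scale. Npc2 was at 625 and 639 CPM in Stra8KO Veh, 583 and 579 CPM in Stra8KO NRRA, 295 and 301 CPM in Spo11KO Veh, and 312 and 305 CPM in Spo11KO NRRA, and every Stra8KO library exceeded every Spo11KO library. Its differences were 1.08 ± 0.036 and 0.91 ± 0.036. Gaa differed by 0.68 and 0.80.

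Ctsd was at 592 and 590.1 CPM in Stra8KO Veh, 623 and 640.4 CPM in Stra8KO NRRA, 365 and 356 CPM in Spo11KO Veh, and 370.0 and 367 CPM in Spo11KO NRRA. Ctsz was at 249 and 249.96 CPM in Stra8KO Veh, 240.4 and 244 CPM in Stra8KO NRRA, 152 CPM in each Spo11KO Veh library, and 134 and 137 CPM in Spo11KO NRRA. Both protease genes kept the genotypes apart in either medium, by 0.71 and 0.78 for Ctsd and by 0.72 and 0.84 for Ctsz. Ctsa was at 363 and 368 CPM in Stra8KO Veh, 364 and 365 CPM in Stra8KO NRRA, 245 and 248 CPM in Spo11KO Veh, and 207 and 215 CPM in Spo11KO NRRA, which gave 0.57 and 0.79. Gla was at 50.1 and 54.2 CPM in Stra8KO Veh, 60.0 and 57.6 CPM in Stra8KO NRRA, 31.2 and 32.7 CPM in Spo11KO Veh, and 29.1 and 29.6 CPM in Spo11KO NRRA, which gave 0.71 and 1.00. These Stra8KO libraries again lay above all Spo11KO libraries. Hexa differed by 0.38 and 0.66.

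Ctss, at 2.91 and 2.01 CPM in Stra8KO Veh, 2.80 and 3.28 CPM in Stra8KO NRRA, 1.01 and 1.31 CPM in Spo11KO Veh, and 1.20 and 1.36 CPM in Spo11KO NRRA, differed by 1.10 ± 0.28 and 1.24 ± 0.26, and its call in Veh was lost without Stra8KO Veh replicate 1. The 12 macrophage markers summed to 0.00521% to 0.00623% of counts over the 4 Stra8KO libraries and 0.00389% to 0.00460% over the 4 Spo11KO libraries. Of the 9 that were tested, 3 were higher and 1 lower in Stra8KO in Veh (31.6% and 30.7% of all genes tested). In NRRA, 7 were higher (35% of all genes tested). C1qb, C1qc and Cx3cr1 were at 0 in a Spo11KO Veh library. Their part in the Ctss difference was not tested.

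On the lysosomal membrane, Lamp1, Lamp2 and Mcoln1 were higher in Stra8KO in both media, by 0.45, 0.46 and 0.33 in Veh and by 0.40, 0.61 and 0.18 in NRRA. Npc1 was higher by 0.29 in Veh and gave 0.09 in NRRA. The Mcoln1 difference in NRRA became -0.03 with total counts as the scale. All 4 ATG8 differences that passed in Veh, and all 5 in NRRA, were in this direction too. Gabarapl1 was at 109.7 and 118 CPM in Stra8KO Veh, 129 and 122 CPM in Stra8KO NRRA, 62.9 and 65.4 CPM in Spo11KO Veh, and 67.3 and 64.9 CPM in Spo11KO NRRA, a difference of 0.82 ± 0.051 in Veh and 0.92 ± 0.050 in NRRA. Map1lc3b was at 169 and 174 CPM in Stra8KO Veh, 163 and 164 CPM in Stra8KO NRRA, 117 and 118 CPM in Spo11KO Veh, and 106 and 101 CPM in Spo11KO NRRA, a difference of 0.54 and 0.66. Stra8KO held the higher libraries for both genes in each medium. Gabarap and Gabarapl2 were higher by 0.52 and 0.39 in Veh and by 0.42 and 0.40 in NRRA, while Map1lc3a gave 0.10 in Veh and was called at 0.19 in NRRA, where total counts gave -0.01.

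Sqstm1 was at 557 and 553 CPM in Stra8KO Veh, 581 and 613 CPM in Stra8KO NRRA, 410.2 and 399 CPM in Spo11KO Veh, and 398 CPM in each Spo11KO NRRA library, higher in Stra8KO by 0.46 ± 0.036 in Veh and 0.59 ± 0.036 in NRRA. Wipi1 was at 142 and 136 CPM in Stra8KO Veh, 153 and 148 CPM in Stra8KO NRRA, 82.0 and 87.1 CPM in Spo11KO Veh, and 88.9 CPM in each Spo11KO NRRA library, higher by 0.72 and 0.76. No Spo11KO library reached a Stra8KO library for either gene. Atg7 was higher in Stra8KO by 0.62 in Veh and 0.35 in NRRA, Tfe3 by 0.48 and 0.44, and Atg3 by 0.45 and 0.30. Wipi2 was higher by 0.45 in Veh and 0.17 in NRRA, and Ulk2 by 0.30 and 0.18. With total counts as the scale the NRRA values of Wipi2 and Ulk2 became -0.04 and -0.03, and Atg7 and Atg3 did not pass in NRRA. Atg9b was higher by 0.48 in Veh, a call lost with DESeq2, without Stra8KO Veh replicate 1 and without Spo11KO Veh replicate 2, and gave -1.502 ± 0.20, called, in NRRA.

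Few members were lower in Stra8KO in both media, namely Tfeb, Bnip3, Atg14 and Ulk1. Bnip3 was at 18.7 and 18.8 CPM in Stra8KO Veh, 21.2 and 19.7 CPM in Stra8KO NRRA, 43.5 and 43.2 CPM in Spo11KO Veh, and 46.1 and 48.6 CPM in Spo11KO NRRA. Its differences were -1.21 ± 0.074 in Veh and -1.21 ± 0.071 in NRRA, and the antisense gene Gm45507 lies opposite 22.25% of its exon bases. Gm45507 had 3081 counts in all against 6304 for Bnip3. Tfeb differed by -1.08 ± 0.070 in Veh and -1.01 ± 0.096 in NRRA. Atg14 was at 40.8 and 35.9 CPM in Stra8KO Veh, 45.6 and 38.8 CPM in Stra8KO NRRA, 63.5 and 60.9 CPM in Spo11KO Veh, and 55.6 and 56.8 CPM in Spo11KO NRRA, a difference of -0.69 ± 0.067 and -0.41 ± 0.065. For these 3 genes every Stra8KO library was below the Spo11KO libraries of its medium. Ulk1 differed by -0.12 in Veh, a call lost with DESeq2 and without Stra8KO Veh replicate 2 or Spo11KO Veh replicate 1, and by -0.34 in NRRA. In single media, Atg5 and Atg16l1 were lower in Veh, by 0.30 and 0.24, and Becn1 was lower in NRRA, by 0.19. Nbr1 was higher by 0.14 in Veh, though not with total counts as the scale, and lower by 0.16 in NRRA. Mitf was higher by 0.57 in Veh and gave -0.10 in NRRA. Atg13 and Atg12 passed in neither medium, with 0.05 and 0.02 in Veh and 0.05 and -0.01 in NRRA.

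Genotype differences of this kind stood beside a shift in cell type markers. All 17 fibroblast markers were higher in Stra8KO in each medium, with medians of 0.93 in Veh and 0.94 in NRRA and ranges from 0.45 to 1.55 and from 0.78 to 1.08. All 8 germ cell markers were lower, with medians of -0.98 in Veh and -1.07 in NRRA. In Veh the germ cell markers summed to 0.0738% and 0.0740% of counts for Stra8KO and 0.164% and 0.167% for Spo11KO, and in NRRA to 0.0911% and 0.0866% for Stra8KO and 0.207% and 0.211% for Spo11KO. The 9 markers of undifferentiated spermatogonia changed side between the media. All 9 were lower in Stra8KO in Veh (median -1.28), while 8 were higher and none lower in NRRA (median 1.05). The lumen medians of 0.71 and 0.84 lay on the side of the fibroblast markers, and the values of Tfeb and Bnip3 on the side of the 8 germ cell markers. Other lysosomal enzymes, a list of 34, were higher for 31 and lower for none in Veh, and higher for 30 and lower for 1 in NRRA. V-ATPase genes were higher for 14 and 12 of 16 and lower for none. The 21 other autophagosome formation genes went more often the other way. Of these, 5 were higher and 12 lower in Veh (median -0.18), and 4 were higher and 8 lower in NRRA (median -0.08). Of all genes tested, 31.6% were higher and 30.7% lower in Veh, and 35% were higher and 28.9% lower in NRRA. Cell make-up and expression per cell cannot be told apart in these libraries.

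**Figure D5:**
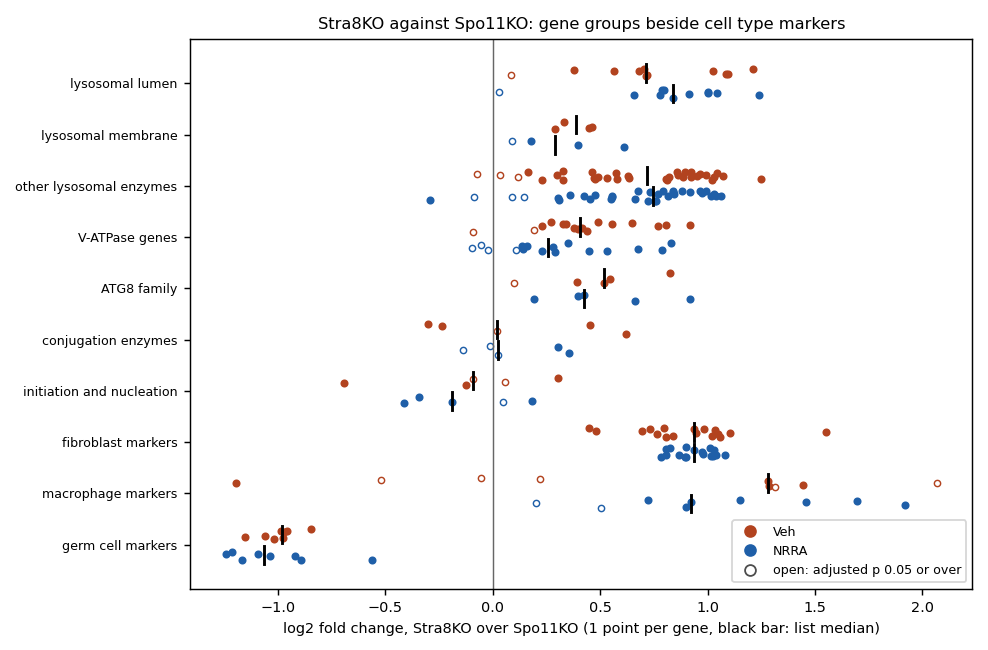
Log2 fold change of Stra8KO over Spo11KO (x axis) in Veh (red) and NRRA (blue), with 1 point per gene, open points where the adjusted p was 0.05 or over and black bars at medians, for gene groups and cell type markers (y axis). The medians of the lysosomal lumen are 0.71 and 0.84 and those of the fibroblast markers 0.93 and 0.94, and the germ cell markers lie between -1.24 and -0.56.

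The third question was whether the NRRA effect itself differed between the knockouts. This difference, taken as Stra8KO less Spo11KO, was called for 15 of the 39 members. It was positive for 6 (14.8% of all genes tested) and negative for 9 (10.3% of all genes), with a median of -0.01 beside 0.01 over all genes. The largest called values were those of Atg9b and Mitf, described above, and Gla at 0.30 ± 0.091, Nbr1 at -0.29 ± 0.056, Wipi2 at -0.29 ± 0.062 and Atg14 at 0.28 ± 0.094. For Gla, Stra8KO libraries rose from Veh to NRRA while Spo11KO libraries were slightly lower in NRRA than in Veh. Gla and Atg14 lost their calls with total counts as the scale, with no filter, with DESeq2 and without several single libraries. Of the 15, the calls of Mitf, Atg9b, Wipi2, Nbr1, Ctsa and Hexa held in every alternative fit. The markers of undifferentiated spermatogonia differed in the same contrast, with 9 of 9 called higher and a median of 2.65, and their part in the members' differences was not tested.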

How the data were processed

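RNA of SSC cultures was sequenced as 8 poly(A) libraries, 2 for each of 4 groups. The deposited table holds raw counts per gene, which per the labels were made with STAR 2.6.1c and featureCounts 1.6.4 on mm10. The strand setting and the handling of multi-mapping reads are not given in the sources used here. No normalization was applied by the authors to the deposited counts.

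The counts were tested with edgeR 4.0.16 in R 4.3.3 (filterByExpr, TMM scaling, a group-means model over all 8 libraries, robust quasi-likelihood F tests, two-sided, Benjamini-Hochberg adjustment over 20588 genes; threshold 0.05). The standard error of a log2 fold change was its size over the root of its F value. The study's methods name DESeq2, run here as an alternative (1.42.0). The fit was first tested on simulated data. Coordinates and exon lengths were taken by identifier from GENCODE on GRCm38, and promoters from RefSeq on GRCm38.p6. Library totals were 20960794 to 27038868 counts.

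The members and lists were chosen with earlier results of these data known. Members called with a log2 fold change of at least 0.58 and no overlap between groups are given with all library values, as are others described in full. Of the wider lists, at most 3 called rises and 3 called falls per comparison are named, where log2 CPM averaged 1 or more. Named besides are the genes with the palindrome, Atg9a, Stra8, Spo11, Nr1d1, Foxo1, Foxo3 and Foxo4. A few genes of the wider lists are not reported here by name. Fam134b, an older name of Retreg1, was not matched. Alternatives were other scalings, filters and tests, a replicate block, the 4 libraries of a comparison alone, a stricter threshold and leaving out each library.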

Additional observations from a re-analysis of the deposited data

Results flagged for a closer look

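The NRRA effect differed between Stra8KO and Spo11KO, by the interaction term of edgeR's quasi-likelihood fit over all genes, for 15 of the 39 members, 6 higher and 9 lower, beside 14.8% and 10.3% of all genes tested. On the log2 scale, Stra8KO minus Spo11KO, the called differences were -0.67 for Mitf, -0.22 for Ulk1, 0.28 for Atg14, -1.99 for Atg9b, -0.29 for Wipi2, -0.27 for Atg7, 0.26 for Atg16l1, -0.29 for Nbr1, 0.15 for Lamp2, -0.20 for Npc1, 0.22 for Ctsa, -0.17 for Ctsl, 0.28 for Hexa, 0.30 for Gla and -0.17 for Npc2. Wipi2 fell and Hexa rose in both genotypes and more in Stra8KO, and these differences held in every alternative. The differences of Lamp2, Atg7 and Ctsl were lost in some. Lamp2 lost its call under both other scalings, with no filter, with the replicate block, with DESeq2 and without several single libraries. Atg7 lost its call with DESeq2 and without single libraries, and Ctsl without single libraries. Nbr1 passed in opposite directions.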

How the results depend on the processing

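With DESeq2 size factors, no filter, DESeq2's Wald test and a threshold of 0.01, the members called higher with NRRA in Stra8KO were 6, 6, 5 and 5 instead of 11, and the median became -0.041 with the size factors and with DESeq2. In Spo11KO, total counts as the scale gave 7 instead of 12 called lower and a median of 0.068, and no filter gave a median of 0.024. For Stra8KO against Spo11KO, total counts moved the all-gene median by -0.11 in Veh and -0.21 in NRRA, the member median to 0.34 and 0.15, and the members lower in NRRA to 13. In NRRA the median was 0.30 with no filter and 0.28 with the 4 libraries alone. Total counts reversed Ulk2 (-0.03), Wipi2 (-0.041), Map1lc3a (-0.014) and Mcoln1 (-0.028) in NRRA, and Atg13, Atg16l1 and Npc1 were then called lower, at -0.16, -0.18 and -0.12. In the interaction, the members called higher were 2 with total counts, no filter and DESeq2 and 3 at a threshold of 0.01, those called lower were 14 with total counts, and the median was -0.041 with size factors, -0.10 with total counts, -0.071 with no filter and -0.041 with DESeq2. The cause was not tested.

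Leaving out each library in turn gave 7 to 11 higher and 12 to 13 lower with NRRA in Stra8KO (medians -0.030 to 0.00), 7 to 10 higher and 10 to 14 lower in Spo11KO (-0.057 to -0.022), 26 to 29 and 5 to 6 for the genotypes in Veh (0.44 to 0.46), 23 to 25 and 7 to 8 in NRRA (0.30 to 0.39), and 4 to 6 and 5 to 9 in the interaction (-0.029 to 0.00). The 7 called higher in Stra8KO arose without Stra8KO Veh replicate 2 or without Stra8KO NRRA replicate 1, and the 5 called lower in the interaction without Stra8KO Veh replicate 1. A group left with 1 library was assumed to vary like the others.

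Calls held in every setting for 16 of 24 members with NRRA in Stra8KO, 14 of 22 in Spo11KO, 30 of 34 in Veh, 26 of 32 in NRRA and 6 of 15 in the interaction. Same-numbered libraries deviated together with correlations of only -0.027 to 0.056, so no shift common to them was seen. With 2 libraries a group, this cannot decide whether the numbers pair the samples. With the replicate block, 13 instead of 12 members were called lower with NRRA in Spo11KO and 5 instead of 6 higher in the interaction, where Lamp2 gave 0.15 with an adjusted p of 0.0555. With 2 libraries a group, changes near 0.1 on the log2 scale are at the limit of what was called.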

Other observations

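Outside the 39 members, some genes of the wider lists had NRRA effects that differed between the knockouts by more than any member but Atg9b. Optn, a cargo receptor of mitophagy and of intracellular bacteria, fell by 1.74 ± 0.086 on the log2 scale in Spo11KO and gave -0.12 ± 0.10 in Stra8KO, a difference of 1.63 ± 0.13 (edgeR adjusted p = 3.13e-14). Retreg1, a receptor for autophagy of the endoplasmic reticulum, fell by 1.09 ± 0.19 in Stra8KO and rose by 0.74 ± 0.14 in Spo11KO, a difference of -1.83 ± 0.23 (adjusted p = 8.96e-09). The differences were 1.40 ± 0.099 for Foxo6, 1.18 ± 0.068 for Rragd, 1.07 ± 0.086 for Fbxo32 and 0.88 ± 0.083 for Epg5.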
